A study of Mus musculus with 6 samples.

Results

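The immunoglobulin constant region genes were followed in neutrophils that had met the yeast Candida albicans. They comprised the heavy chain genes Ighm, Ighd, Ighg3, Ighg1, Ighg2b, Ighg2c and Igha and the light chain genes Igkc, Iglc1 and Iglc2, which are 10 of the 54532 genes in the deposited table. The genes were taken by symbol, and they were picked knowing that antibody genes differ between the genotypes compared here, so their differences are given as a description with no test. Neutrophils came from the bone marrow of C57BL/6J mice, either wild type (WT) or lacking progranulin (PGRN KO), a secreted growth factor encoded by Grn. There were 3 cultures of each genotype. Every culture was held for 2 h and then challenged with Candida albicans for 6 h, the WT cultures titled control included, and no unchallenged culture was part of the comparison. The ratio of yeast to neutrophils differs between the sample labels and the methods of the study. The cells were isolated with beads against Ly-6G, a neutrophil surface protein, and other cells can pass such an isolation. The PGRN KO mice came from a commercial supplier and the WT mice from the university where the work was done, so genotype and origin of the mice cannot be told apart. The sources used here do not give the number of mice behind a culture, and the standard deviations and p-values below measure only the spread between these cultures, which may be technical.

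An antibody joins paired heavy chains with paired light chains. The variable part of each chain binds antigen, and the constant part sets the class: Ighm encodes the heavy chain of IgM, Ighd of IgD, the Ighg genes of the IgG subclasses and Igha of IgA. B cells begin with IgM and IgD, and class switching cuts the DNA so that a downstream constant gene is placed behind the same variable segment. Plasma cells, which reside in bone marrow for long periods, secrete antibody and carry very large amounts of these transcripts, whereas neutrophils bind antibody through receptors for its constant part. Light chains are of the kappa type (Igkc) or the lambda type (the Iglc genes), and kappa chains prevail in mice.

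On GRCm38 the heavy chain genes lay together on the minus strand of chromosome 12, in the direction of transcription Ighm (ENSMUSG00000076617, chr12:113418558-113422730), Ighd (ENSMUSG00000104213, chr12:113406604-113416324), Ighg3 (ENSMUSG00000076615, chr12:113356224-113361232), Ighg1 (ENSMUSG00000076614, chr12:113325240-113330523), Ighg2b (ENSMUSG00000076613, chr12:113302965-113307933), Ighg2c (ENSMUSG00000076612, chr12:113285325-113288932) and Igha (ENSMUSG00000095079, chr12:113254830-113260236). Igkc (ENSMUSG00000076609, chr6:70726435-70726966) was on the plus strand. Iglc2 (ENSMUSG00000076937, chr16:19198396-19200351) and Iglc1 (ENSMUSG00000105906, chr16:19061618-19062071) were on the minus strand. Values counted fragments over all annotated exons of a gene. The annotation places the joining segment Iglj2 within Iglc2, and the other 9 genes overlapped no other gene.

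The IgG genes resemble each other closely. The second exon encodes the hinge between the antigen-binding arms and the tail. Of the first 3 exons, which were compared singly, it had the lowest identity in every pair. The 4 hinge exons are shown because the subclass differences below rest on telling these genes apart. They are from the GENCODE transcripts, on the minus strand of chromosome 12 of GRCm38, written 5′ to 3′. Capitals mark in-frame codons for cysteine, the residue through which heavy chains are linked to each other, and the first bases of each exon complete a codon begun in the exon before.
Ighg3, chr12:113360529-113360576: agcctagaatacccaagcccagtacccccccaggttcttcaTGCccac
Ighg1, chr12:113329844-113329882: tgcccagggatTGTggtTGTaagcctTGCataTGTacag
Ighg2b, chr12:113307261-113307326: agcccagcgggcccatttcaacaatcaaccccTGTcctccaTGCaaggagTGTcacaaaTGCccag
Ighg2c, chr12:113288263-113288325: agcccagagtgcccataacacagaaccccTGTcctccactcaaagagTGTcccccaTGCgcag
The hinge exon was 39 bases long in Ighg1 and 66 in Ighg2b, both with 4 cysteine codons, against 1 such codon in the 48 bases of Ighg3 and 3 in the 63 bases of Ighg2c. Hinge exons of a pair were 38.8% to 77.3% identical. Over the coding part of the shortest transcripts, identity of the IgG pairs ran from 74.1% to 85.7%. The closest pair was Ighg2b and Ighg2c, whose exon 3, the first after the hinge, was 94.2% identical. Within the shortest transcripts, no stretch of 100 bases was shared without a mismatch by any IgG pair. The remaining exon bases, which the values also count, were not compared. Fragments with shorter matches or with mismatches can still be split between the genes, and a single IgG gene is less certain than the IgG sum.

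The lambda genes raise the same matter. The first 90 coding bases of 3 of them are shown, with Iglc3 added because of its likeness to Iglc2. They are read on the minus strand of chromosome 16 of GRCm38, and capitals mark bases that differ from Iglc2 in a pairwise alignment.
Iglc2, chr16:19198764-19198853: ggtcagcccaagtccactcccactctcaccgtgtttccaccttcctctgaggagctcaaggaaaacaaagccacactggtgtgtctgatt
Iglc3, chr16:19065592-19065681: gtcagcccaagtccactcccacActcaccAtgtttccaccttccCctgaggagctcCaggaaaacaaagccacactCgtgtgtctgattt
Iglc1, chr16:19061982-19062071: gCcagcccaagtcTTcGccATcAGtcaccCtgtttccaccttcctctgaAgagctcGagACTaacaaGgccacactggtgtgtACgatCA
In this window Iglc3 differed from Iglc2 at 5 bases and Iglc1 at 19, counted as capitals. Bases of Iglc2 that are absent from the other gene are neither marked nor counted, so the lines are not in register. Over the whole coding part, the alignment to Iglc2 held 1 gap position for Iglc3 and 6 for Iglc1. Over the coding part, Iglc2 and Iglc3 were 96.2% identical, so their values are uncertain, while Iglc1 and Iglc2 were 73.4% identical. Within the shortest transcripts, no lambda pair shared a stretch of 100 bases without a mismatch, but fragments with shorter matches or with mismatches can still be split.

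The 6 libraries held between 17087344 and 18821091 fragments on genes. Grn had an FPKM (fragments scaled to exon length and library size) of 161.3 to 168.4 in WT, against 0.206 to 0.747 in PGRN KO, as the labels require. The neutrophil markers S100a8, S100a9 and Ngp were the most abundant of the 14 listed, with S100a8 between 15680 and 18550 FPKM, and Ly6g was between 37.95 and 52.8 FPKM. The 10 constant genes together took 0.0660% to 0.0746% of the fragments in WT and 0.332% to 0.379% in PGRN KO. Their summed level was 680.4, 647.8 and 623.1 FPKM in WT, against 3084, 3229 and 3533 FPKM in PGRN KO, a ratio of means of 5.05. In bulk RNA, more cells of a type and more RNA per cell cannot be told apart.

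Ighm, the constant gene of IgM and the first that a B cell transcribes, was lower in PGRN KO. Igkc, Igha, Ighg2b and Ighg2c, each above it in every library, were higher there, while Iglc2, near its level in WT, was also lower. The FPKM of Ighm was 18.8, 17.4 and 16.4 in WT, against 5.64, 7.44 and 8.44 in PGRN KO. The genotypes did not overlap, and the highest PGRN KO library was below the lowest WT library. The mean fell from 17.5 ± 1.21 to 7.18 ± 1.42 FPKM (n = 3 per genotype, ± SD). The log2 fold change was -1.19 (standard error 0.13). All log2 fold changes are of PGRN KO over WT on the log2(FPKM + 1) scale, which understates the change of genes with low values. Ighd, which naive B cells express beside Ighm, had 0 fragments in every library. A count of 0 allows up to 3 fragments, or 0.0803 to 0.0947 FPKM depending on the library, and covers counting error only.

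Of the IgG subclasses, Ighg1 differed most. Its FPKM was 8.13, 6.75 and 4.17 in WT and 127.7, 138.9 and 151.7 in PGRN KO, from 835 and 20175 fragments in all. Every PGRN KO library was far above every WT library, with means of 6.35 ± 2.01 and 139.4 ± 12.0 FPKM (n = 3 per genotype, ± SD), a ratio of 22.0 and a log2 fold change of 4.29 (standard error 0.20).

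Ighg2c, the gene that C57BL/6 mice carry in place of Ighg2a, followed. Its FPKM was 28.7, 24.5 and 24.6 in WT and 361.6, 358.3 and 462.5 in PGRN KO. The genotypes did not overlap, and the means of 25.9 ± 2.38 and 394.1 ± 59.2 FPKM (n = 3 per genotype, ± SD) gave a ratio of 15.2 and a log2 fold change of 3.87 (standard error 0.11).

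Ighg2b, the most abundant IgG gene in WT, showed a smaller difference. Its FPKM was 35.7, 32.1 and 34.6 in WT and 197.9, 195.1 and 231.4 in PGRN KO. Again the genotypes did not overlap, and the log2 fold change was 2.57 (standard error 0.077), a ratio of means of 6.10.

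Ighg3, the subclass gene nearest to Ighd, did not follow the other 3. It had 2.91, 1.17 and 1.93 FPKM in WT, against 0.937, 1.67 and 2.73 FPKM in PGRN KO. The genotypes overlapped, with means of 2.00 ± 0.871 and 1.78 ± 0.904 FPKM (n = 3 per genotype, ± SD). Its log2 fold change of -0.12 (standard error 0.29) turned to 0.089 without WT replicate 1 and to 0.11 without PGRN KO replicate 4, so no direction is given for it.

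Igha, which encodes the heavy chain of the antibody class of mucosal surfaces, was the leading heavy chain gene in WT. Its FPKM was 123.2, 110.3 and 105.7 in WT and 260.03, 285.6 and 259.1 in PGRN KO. The genotypes did not overlap. The mean went from 113.1 ± 9.06 to 268.2 ± 15.1 FPKM (n = 3 per genotype, ± SD). The log2 fold change was 1.24 (standard error 0.070), and Igha was 2.37 times its WT mean where Ighg1 was 22.0 times.

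**Figure D1:**
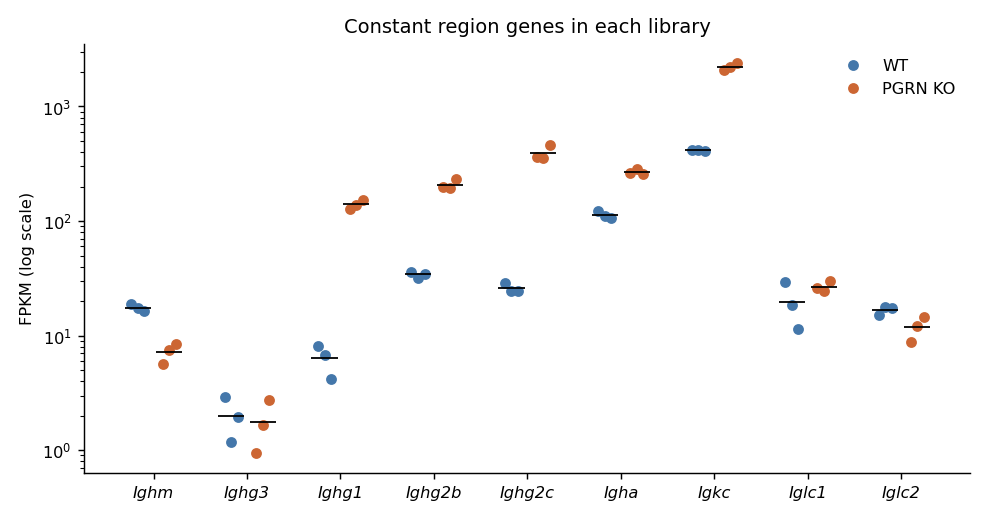
FPKM of 9 constant region genes in each library on a log scale, with the 3 WT libraries in blue, the 3 PGRN KO libraries in orange and a bar at each mean (Ighd, at 0 in all libraries, is not drawn). The orange points lie above the blue ones for Ighg1, Ighg2b, Ighg2c, Igha and Igkc, below them for Ighm and Iglc2, and among them for Ighg3 and Iglc1.

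Igkc, the single kappa constant gene, had the highest FPKM of the 10 genes in every library. It was at 418.2, 419.2 and 406.97 FPKM in WT and at 2095.5, 2205.3 and 2372.6 FPKM in PGRN KO. The genotypes did not overlap, and the 3 WT libraries lay close together. The means of 414.8 ± 6.81 and 2224 ± 139.5 FPKM (n = 3 per genotype, ± SD) gave a ratio of 5.36 and a log2 fold change of 2.42 (standard error 0.054).

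The lambda genes did not follow Igkc. Iglc1 was at 29.6, 18.6 and 11.3 FPKM in WT and at 25.9, 24.4 and 29.8 FPKM in PGRN KO. The genotypes overlapped, because WT replicate 1 lay among the PGRN KO libraries, and the log2 fold change was 0.50 (standard error 0.30). Iglc2 was at 15.2, 17.7 and 17.4 FPKM in WT and at 8.79, 12.2 and 14.6 FPKM in PGRN KO. Here the PGRN KO libraries were all below the WT libraries, although PGRN KO replicate 6 came close, and the log2 fold change was -0.49 (standard error 0.17).

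Each lambda constant gene was set beside the variable segments that lie upstream of it and are mainly joined to it, Iglv1 for Iglc1 and Iglv2 and Iglv3 for Iglc2. These segments were chosen after their values were seen. Iglv1 was at 36.0, 27.0 and 20.3 FPKM in WT and at 43.7, 37.6 and 48.3 FPKM in PGRN KO, without the overlap between genotypes seen for Iglc1. The order of the libraries within each genotype was that of Iglc1, and the ratio of Iglv1 to Iglc1 was 1.49 ± 0.290 in WT and 1.62 ± 0.0721 in PGRN KO (n = 3 per genotype, ± SD).

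Behind the small difference of Iglc2, its variable segments changed places. Iglv2 was at 19.8, 20.0 and 29.5 FPKM in WT and at 1.84, 1.96 and 4.03 FPKM in PGRN KO. Iglv3 was at 1.55, 0.944 and 2.61 FPKM in WT and at 11.3, 15.5 and 18.4 FPKM in PGRN KO. Iglv3 thus made up 6.62% ± 1.88 of the sum of the pair in WT and 85.6% ± 3.38 in PGRN KO (n = 3 per genotype, ± SD). The lower segment of each genotype rested on few fragments, 10, 6 and 17 for Iglv3 in WT and 12, 13 and 29 for Iglv2 in PGRN KO. The sequences of the variable segments were not compared, so how far fragments can be split between them is not known. The sum of the pair was 1.48 times Iglc2 in WT and 1.49 times in PGRN KO.

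**Figure D2:**
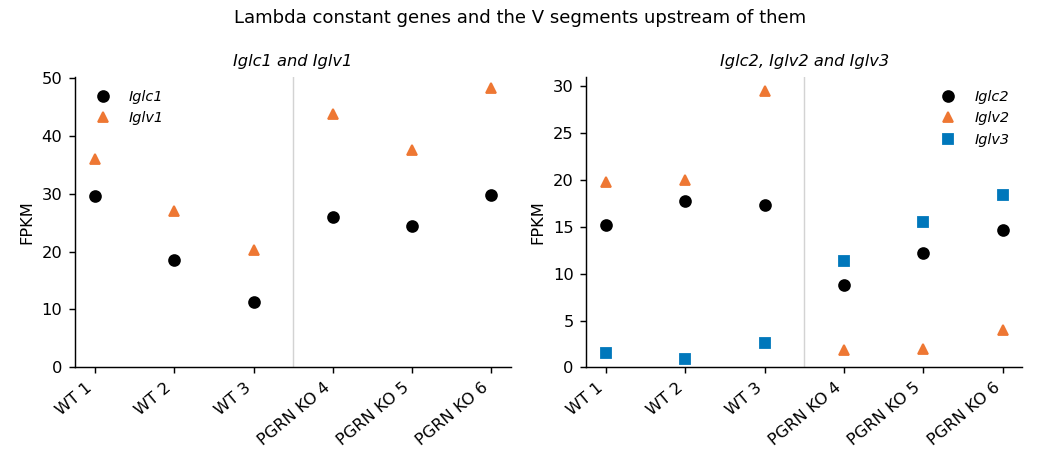
FPKM of Iglc1 and Iglv1 (left) and of Iglc2, Iglv2 and Iglv3 (right) in each of the 6 libraries, 1 point a gene and library, with a line between the genotypes. Within each genotype the libraries have the same order by Iglv1 as by Iglc1, but only Iglc1 overlaps between genotypes. Iglv2 is the higher of the Iglc2-linked segments in WT, at 19.8 to 29.5 FPKM, and Iglv3 in PGRN KO, at 11.3 to 18.4 FPKM.

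Across all genes, limma compared the genotypes in the 14807 genes that averaged 0.1 FPKM or more, with Benjamini-Hochberg adjustment, and 17.9% had an adjusted p under 0.05 (7.94% higher and 9.95% lower in PGRN KO). Of the constant genes, 9 of 10 were tested and Ighd was not. Adjusted values under 0.05 were found for 6 of the 9, 5 of them higher (Igkc, Ighg1, Ighg2b, Ighg2c and Igha) and 1 lower (Ighm), and for Ighg3, Iglc1 and Iglc2 they were not. The values of the genotypes did not overlap for 7 of the 9, against 37.7% of all tested genes. Because the genes were chosen on this contrast, these counts are a description only. The median log2 fold change was 1.24 over the 9 genes and 0.0026 over all 14807.

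The scaling of the libraries set the balance of all calls but not the direction of these genes. As deposited, 44.4% of the called genes were higher in PGRN KO, against 69.7% after scaling to plain fragment totals and 70.5% with voom on recovered fragments, which moved the median of all genes to 0.12 on the log2 scale. Ighm stayed lower in all 12 alternatives, with log2 fold changes between -1.30 and -1.05. Ighg1, Ighg2b, Ighg2c, Igha and Igkc stayed higher in all 12, and their smallest log2 fold change was 1.19, for Igha.

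**Figure D3:**
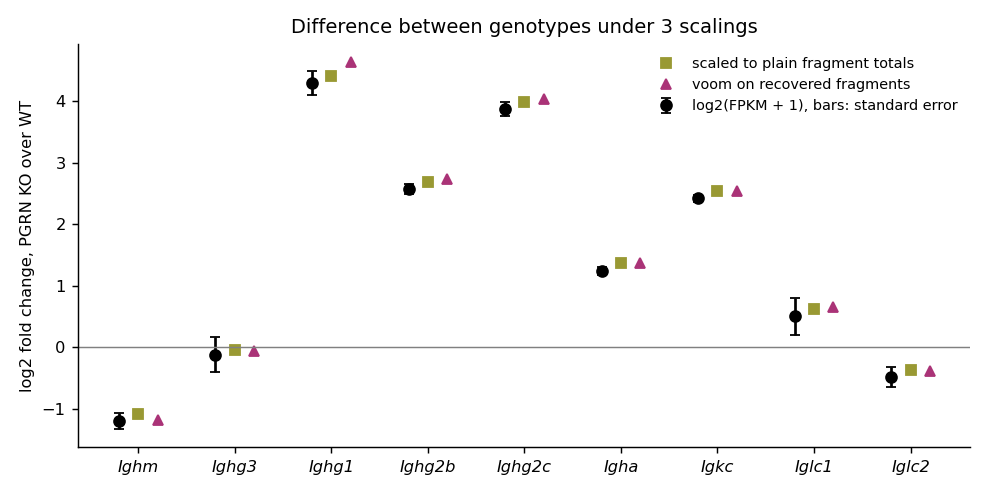
Log2 fold change of PGRN KO over WT for 9 constant region genes, from log2(FPKM + 1) with standard errors as bars (black circles), after scaling to plain fragment totals (squares) and with voom on recovered fragments (triangles). Ighg1 is highest at 4.29 and Ighm lowest at -1.19, and both other scalings place every gene slightly higher.

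The make-up of the heavy chains differed with genotype. Within each library, the FPKM of a class was divided by the summed FPKM of the heavy chain genes. IgM took 8.64%, 9.05% and 8.74% of the sum in WT and 0.592%, 0.754% and 0.757% in PGRN KO. IgG took 34.7%, 33.6% and 34.9% in WT and 72.1%, 70.3% and 76.0% in PGRN KO. IgA took 56.7%, 57.4% and 56.4% in WT and 27.3%, 28.9% and 23.2% in PGRN KO. IgA was thus the largest class in all 3 WT libraries and IgG in all 3 PGRN KO libraries, with no overlap for any class. The share of IgA was lower in PGRN KO while the level of Igha was higher. As a share of fragments, IgM was 6.74% in WT replicate 1 (95% Wilson interval 6.24% to 7.28%) and 0.520% in PGRN KO replicate 4 (0.451% to 0.599%), where intervals cover counting error only. The IgM shares of the WT libraries, 6.74% to 7.04%, all lay within that WT interval. In PGRN KO, replicates 5 and 6, at 0.657% and 0.680%, lay above the interval of replicate 4.

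Among the IgG subclasses the lead depended on the length by which counts are divided. By FPKM, Ighg2b held 50.0% ± 2.85 of the IgG sum in WT and 28.1% ± 0.743 in PGRN KO, and Ighg2c held 37.9% ± 0.202 and 52.9% ± 1.48 (n = 3 per genotype, ± SD). Ighg1 went from 9.21% ± 2.46 to 18.8% ± 1.09 and Ighg3 from 2.87% ± 1.02 to 0.233% ± 0.0933 (n = 3 per genotype, ± SD). The FPKM of Ighg2c was computed over 1326 bases of exon, 1.19 times its shortest transcript, whereas Ighg1, Ighg2b and Ighg3 have 2512 to 2678 bases, 2.32 to 2.41 times theirs. Per length of the shortest transcript, Ighg2b held 38.2% and Ighg2c 35.8% of the IgG sum in PGRN KO, and Ighg2b was ahead of Ighg2c in each of the 3 libraries. Under both lengths the share of Ighg2b in the IgG sum was lower and those of Ighg2c and Ighg1 higher in PGRN KO than in WT. As a share of the heavy chain sum, Ighg2b was higher in PGRN KO. By FPKM it took 17.2% in WT and 20.4% in PGRN KO, and per length of the shortest transcript 19.2% and 25.4%.

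**Figure D4:**
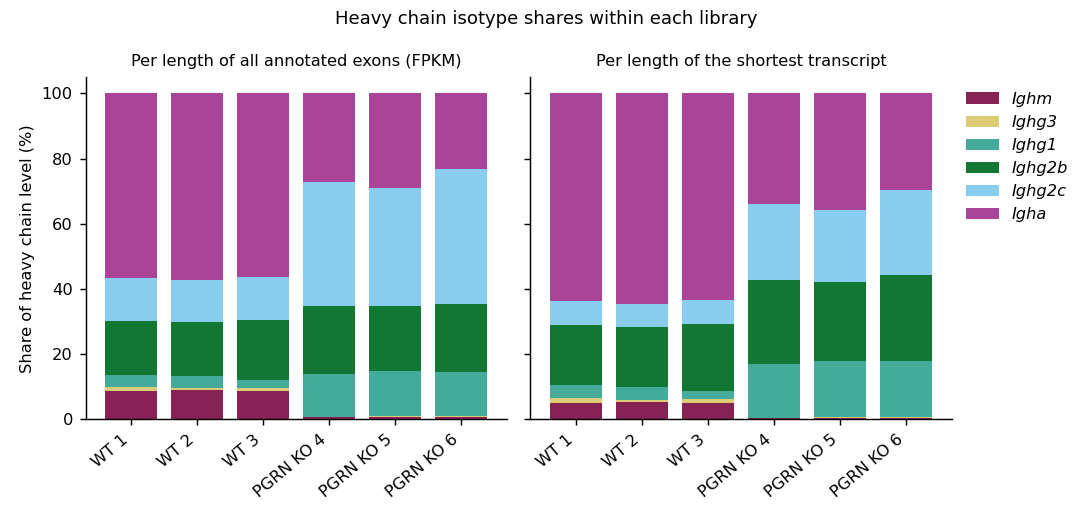
Share of each heavy chain gene in the summed heavy chain level of each library, in percent, with levels per length of all annotated exons (left) and per length of the shortest transcript (right). The Igha part is 56.4% to 57.4% in WT, against 23.2% to 28.9% in PGRN KO, on the left, and the Ighg2c part is much narrower on the right than on the left.

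The light chains shifted towards kappa. Igkc made up 90.3%, 92.0% and 93.4% of the summed light chain FPKM in WT, against 98.4%, 98.4% and 98.2% in PGRN KO. The genotypes did not overlap, and lambda went from 8.08% ± 1.55 to 1.70% ± 0.120 of the light chain sum (n = 3 per genotype, ± SD). Within lambda, Iglc1 took 66.0%, 51.2% and 39.5% in WT and 74.7%, 66.6% and 67.1% in PGRN KO, with the WT range far wider.

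By FPKM, the sums of heavy and light chain genes differed between genotypes by nearly the same factor. The summed heavy chain FPKM was 5.12 times and the summed light chain FPKM 5.01 times its WT mean in PGRN KO. The ratio of heavy to light was 0.470, 0.422 and 0.430 in WT and 0.448, 0.440 and 0.462 in PGRN KO, and on this scale the genotypes overlapped. On the other scales they did not, and PGRN KO was the lower. Per length of the shortest transcript the ratio was 0.899 to 1.002 in WT, against 0.862 to 0.875 in PGRN KO, and by fragments it was 1.92 to 2.15, against 1.79 to 1.82.

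Heavy chain and kappa variable segments differed less between genotypes than the constant genes. The summed FPKM of heavy chain variable segments was 1.51 ± 0.0445 times that of the heavy chain constant genes in WT and 0.970 ± 0.0567 times in PGRN KO (n = 3 per genotype, ± SD). For kappa the ratio was 0.801 ± 0.0424 and 0.612 ± 0.0358. For lambda, where Iglc3 was counted with Iglc1 and Iglc2, it was 1.42 ± 0.286 and 1.48 ± 0.0539, with overlap between the genotypes.

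The order of the levels can be given per length. In WT it was Igkc, Igha, Ighg2b, Ighg2c, Iglc1, Ighm, Iglc2, Ighg1, Ighg3 and Ighd. The range of Iglc1 overlapped those of Ighg2c, Ighm and Iglc2, and the ranges of Ighm and Iglc2 overlapped each other, while the other neighbours were apart. In PGRN KO it was Igkc, Ighg2c, Igha, Ighg2b, Ighg1, Iglc1, Iglc2, Ighm, Ighg3 and Ighd, with no overlap between neighbours. Per length of the shortest transcript, the heavy chain order in PGRN KO was Igha, Ighg2b, Ighg2c, Ighg1, Ighm and Ighg3.

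Replicate spread was uneven among the genes. In WT, Igkc varied by 1.64% (coefficient of variation), which is the 1.64% that counting alone gives for its fragments. Iglc1 varied by 46.3%, Ighg3 by 43.5% and Ighg1 by 31.7%, against 8.10%, 10.8% and 5.99% from counting. In PGRN KO the wide genes were Ighg3, at 50.8%, Iglc2, at 24.7%, and Ighm, at 19.8%. Ighg1 narrowed there to 8.59% and Iglc1 to 10.5%. The median over the 2781 genes that averaged 1000 fragments or more was 3.90% in WT and 5.43% in PGRN KO.

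The remaining antigen receptor constant genes were scarce. Of 7 in the table, Iglc4 and Trdc were at 0 in every library, Trbc1 had 6 fragments and Trbc2 had 1 over all libraries, and Trac had 10 fragments in WT and 16 in PGRN KO. Ighe, the constant gene of IgE, had 1 fragment over all WT libraries, against 16, 2 and 15 in PGRN KO replicates 4, 5 and 6 (adjusted p = 0.0948 from limma, 0.0112 without PGRN KO replicate 5 and 0.00987 with voom on recovered fragments). Iglc3 rose from 1.40 to 2.54 FPKM (log2 fold change 0.57, adjusted p = 0.0163 from limma), on 32 and 64 fragments, and its adjusted p was 0.0563 to 0.0637 without WT replicate 1 or 3 or PGRN KO replicate 4 or 6 and 0.0544 with voom. Iglc3 overlaps another annotated gene, 2010309G21Rik, which adds to the uncertainty of its count and level.

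Genes that act in the assembly and secretion of antibody, or that mark or regulate cells that secrete it, were examined next. They came from a list of 22, all of them tested. Of these, 6 rose, 5 fell and 11 did not pass, where 17.9% of all tested genes passed (7.94% higher and 9.95% lower), with a median log2 fold change of 0.031 against 0.0026 for all genes. With voom on recovered fragments, 8 rose and 5 fell, where 28.6% of all genes passed (20.2% higher and 8.46% lower). The summed level of the list was 448.3 to 458.6 FPKM in WT and 450.2 to 458.8 FPKM in PGRN KO, and most of it was Hspa5, Pim2 and Xbp1.

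Jchain, which links the units of IgM and of secreted IgA, was at 22.2, 22.5 and 21.4 FPKM in WT and at 63.0, 75.8 and 77.2 FPKM in PGRN KO. All PGRN KO libraries were above all WT libraries (log2 fold change 1.66, adjusted p = 0.000138 from limma). Its ratio to the sum of Igha and Ighm was 0.169 ± 0.0113 in WT and 0.262 ± 0.0259 in PGRN KO (n = 3 per genotype, ± SD), without overlap, and its ratio to Igkc went the other way, from 0.0531 ± 0.000545 to 0.0323 ± 0.00215 (n = 3 per genotype, ± SD).

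Mzb1, a chaperone of B and plasma cells for antibody folding, rose from 1.04 to 4.95 FPKM (log2 fold change 1.54, adjusted p = 0.000294 from limma). Pou2af1, a transcriptional coactivator at antibody promoters, rose from 0.217 to 1.27 FPKM (log2 fold change 0.90, adjusted p = 0.00115 from limma), from 28 and 181 fragments. The other 3 that rose were Derl3, Tnfrsf13b and Tnfrsf17, the last a plasma cell receptor with 0 fragments in WT and 12 in PGRN KO. Hspa5, the general chaperone that holds heavy chains in the endoplasmic reticulum of secretory and other cells alike, fell from 168.1 to 129.9 FPKM (log2 fold change -0.37, adjusted p = 0.00379 from limma). The other 4 that fell were Prdm1, a regulator of plasma cell fate with roles in other leukocytes, Tent5c, Ell2 and Slamf7. These 7 were named after their values were seen. Xbp1, which drives the secretory programme of plasma cells and acts in other cells too, was at 45.05 to 49.8 FPKM in WT and 52.9 to 54.6 FPKM in PGRN KO. It did not pass (adjusted p = 0.0651 from limma), but it passed with voom on recovered fragments (log2 fold change 0.288, adjusted p = 0.000934).

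Most markers that define mature B cells were at or near 0 in both genotypes. Of 18 listed, 8 had enough signal to be tested, 3 rose, 0 fell and 5 did not pass (17.9% of all tested genes passed), and the list summed to 20.1 to 23.05 FPKM in WT and 22.3 to 24.9 FPKM in PGRN KO. Most of that was Btk, a kinase of myeloid as well as B cells, at 17.6 and 17.9 FPKM. Pax5, the factor that defines the B lineage, had 0 fragments in all libraries, and Ms4a1 had 3 in WT and 1 in PGRN KO. Cd79b, a signalling chain of the B cell receptor, rose from 0.276 to 1.18 FPKM (log2 fold change 0.77, adjusted p = 0.00921 from limma), on 20 and 95 fragments. Its partner Cd79a rose from 1.88 to 3.37 FPKM (log2 fold change 0.61, adjusted p = 0.0343 from limma), but the adjusted p was 0.0537 to 0.124 in the fits without WT replicate 1 or 3 or any of the PGRN KO replicates and 0.0747 with no filter on low values. The adaptor Blnk had an adjusted p of 0.0491 from limma, and of 0.0571 to 0.126 in all 6 fits that left out 1 library. With voom on recovered fragments 3 of the 8 rose and 1 fell, against 20.2% and 8.46% of all genes. The gene that fell was Cd72, named after its values were seen. Its mean was 0.616 FPKM in WT and 0.265 FPKM in PGRN KO (adjusted p = 0.0183 with voom and 0.0800 from limma).

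Of 12 pre-B cell genes, 4 were tested, 1 rose, 1 fell and 2 did not pass, with 17.9% passing among all genes. The recombinase gene Rag2, Dntt and Vpreb2 were at 0 in all libraries. Vpreb3, which binds nascent light chains, had 0 fragments in WT and 11 in PGRN KO (adjusted p = 0.0193 from limma, and 0.0518 to 0.0582 without WT replicate 1 or 2 or PGRN KO replicate 5). Il7r, a cytokine receptor chain of lymphoid progenitors and several other leukocytes, fell from 10.2 to 5.93 FPKM (log2 fold change -0.70, adjusted p = 0.00476 from limma). The part of any of these cells in the constant gene levels was not tested.

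Of 17 tested genes of the class switching machinery, 1 rose, 1 fell and 15 did not pass, a share called below the 17.9% of all genes, and the median log2 fold change was 0.12. The count depended on the fit, and with voom 8 rose and 1 fell, against 20.2% and 8.46% of all genes. The mismatch repair gene Msh6 rose from 3.21 to 4.77 FPKM (adjusted p = 0.0162 from limma, and 0.0549 to 0.0625 without WT replicate 1 or 3 or PGRN KO replicate 4 or 5). Batf, a transcription factor used by T and B cells and also active in myeloid cells, fell from 128.7 to 98.1 FPKM (adjusted p = 0.0168 from limma, and 0.0556 to 0.0727 without WT replicate 1 or 2 or PGRN KO replicate 5 or 6).

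Receptors for antibody constant parts, through which neutrophils take up coated yeast, were far more abundant than the antibody genes' B cell partners. Fcer1g, the shared signalling chain, was at 1777 to 1833 FPKM in WT and 1640 to 1740 FPKM in PGRN KO, Fcgr3 at 185.5 to 189.3 and 174.4 to 204.4 FPKM, and Fcgr4 at 75.7 to 77.8 and 66.95 to 83.2 FPKM, and none of the 3 passed. Of 8 tested receptor genes, 1 rose, 2 fell and 5 did not pass, where 17.9% of all tested genes passed. Fcgr2b, the inhibitory IgG receptor, fell from 55.7 to 44.8 FPKM (log2 fold change -0.31, adjusted p = 0.00906 from limma). Fcer1a, the IgE receptor chain of mast cells and basophils, rose on few fragments, 3 in WT and 35 in PGRN KO (adjusted p = 0.0034 from limma). Trim21, a receptor inside the cell, fell from 8.80 to 7.16 FPKM (adjusted p = 0.0231 from limma), and lost its call after scaling to plain totals (adjusted p = 0.111), with voom (adjusted p = 0.114) and, at 0.0584 to 0.0877, in the fits without any of the WT replicates or PGRN KO replicate 4 or 6.

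Other cell types were compared through their markers. The 14 neutrophil genes summed to 72520 to 77100 FPKM in WT and 73860 to 83870 FPKM in PGRN KO, 1 rose, 2 fell and 11 did not pass, where 17.9% of all genes passed, and their median log2 fold change was 0.0015. With voom 7 rose and 1 fell, against 20.2% and 8.46% of all genes, so the balance of the neutrophil genes depended on the fit. Of 12 T and NK cell genes, Cd3e, Cd3g and Cd8b1 were at 0 throughout and 4 were tested. Of these, 1 rose, 0 fell and 3 did not pass, where 17.9% of all genes passed. With voom 2 rose and 0 fell, against 20.2% and 8.46% of all genes. The list summed to 2.63 to 3.40 FPKM in WT and 7.97 to 8.98 FPKM in PGRN KO, owing mainly to the granule gene Nkg7, which rose from 2.54 to 7.79 FPKM (log2 fold change 1.31, adjusted p = 0.000377 from limma). Of 8 monocyte and macrophage genes, 1 rose, 4 fell and 3 did not pass, where 17.9% of all genes passed. Those that fell included Ccr2, a receptor for monocyte recruitment (log2 fold change -0.82), the lysosomal gene Cd68 (510.7 against 367.0 FPKM) and F13a1, the last named after its values were seen. The surface protein gene Ly6c2 rose from 401.1 to 521.2 FPKM (log2 fold change 0.37, adjusted p = 0.0447 from limma), with an adjusted p of 0.0936 with no filter on low values and 0.0988 to 0.148 without any of the WT replicates or PGRN KO replicate 5 or 6. The list summed to 1007 to 1073 FPKM in WT and 913.9 to 1080 FPKM in PGRN KO. The part of these cells in the constant gene levels was not tested.

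**Figure D5:**
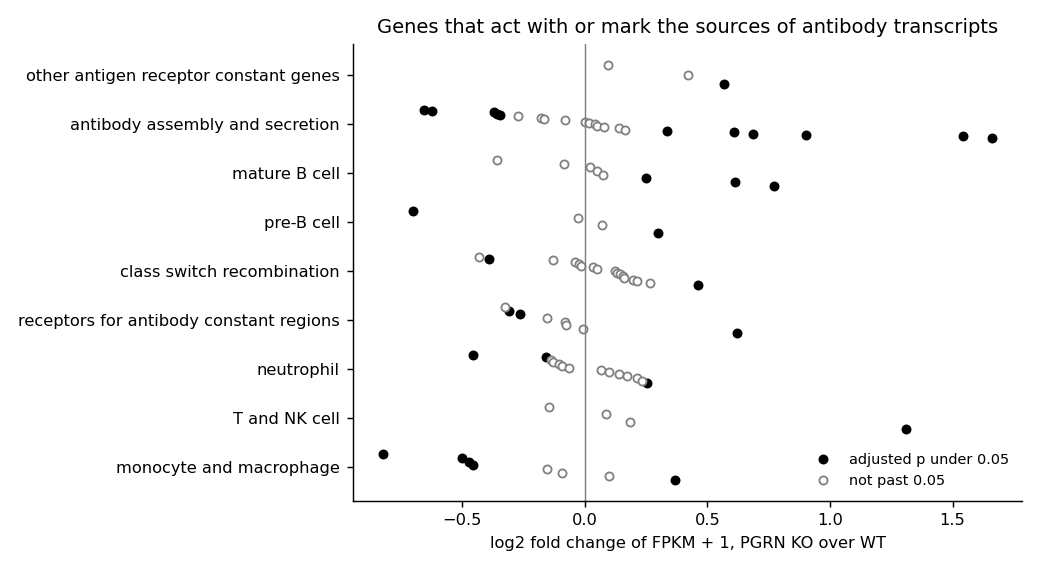
Log2 fold change of FPKM + 1, PGRN KO over WT, for each tested gene of 9 lists, 1 point a gene, with filled points for an adjusted p under 0.05 from limma. The highest points are Jchain at 1.66 and Mzb1 at 1.54 in the antibody assembly list, in which 11 of 22 genes did not pass.

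Finally, the genes whose log2(FPKM + 1) ran most like the constant genes over the 6 libraries were listed, among 9079 genes outside the immunoglobulin loci that averaged 1 FPKM or more. For the summed IgG genes they included Ms4a3 (Pearson r = 0.998), Fdxr (0.998), Ctsg (0.997) and Rps18 (0.997), and 376 genes reached 0.95. For Ighm they were Ctsd (0.998), Tent4a (0.995), Abi3 (0.994), Fxyd5 (0.994) and Cd48 (0.994), and 382 genes reached 0.95. The 6 points share the 2 genotypes, so that genes that differ between the genotypes tend to score highly, and these values are a description.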

How the data were processed

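RNA was taken from 3 WT and 3 PGRN KO neutrophil cultures after 6 h with Candida albicans, and libraries were made with the NEBNext Ultra kit from polyadenylated RNA. The authors deposited FPKM values, that is fragments divided by the length of all annotated exons of a gene and by library size. The submitters' processing notes name CASAVA, HISAT2 2.0.5, featureCounts 1.5.0-p3 and DESeq2 1.20.0 with the builds mm10 and GRCm38, whereas the methods of the study name HISAT and HTSeq. The sources used here do not say whether counting used strand. All 10 constant genes have the same start, end and exon length in GENCODE as in the table, so positions and sequences are from GENCODE transcripts on GRCm38.

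Multiplied by length, 100% of the deposited FPKM values above 0 gave whole fragments within 0.05, which returned 17290604 to 17799798 fragments per WT library and 17087344 to 18821091 per PGRN KO library. These totals were 1.03 to 1.04 times the library sizes used by the authors in WT and 0.946 to 0.957 times in PGRN KO.

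The 14807 genes that averaged 0.1 FPKM or more entered a limma 3.58.1 fit of log2(FPKM + 1) on genotype (lmFit, eBayes with trend, R 4.3.3). The test was two-sided, and p-values were adjusted over all 14807 by Benjamini-Hochberg, with a threshold of 0.05. Log2 fold changes of the constant genes come from that fit without a p-value. Shares, ratios and intervals were computed with Python 3.11.15, numpy 2.4.6, pandas 2.3.3 and scipy 1.17.1, and the fit was tested on simulated data. Alternatives were a pseudocount of 0.1, a minimum mean FPKM of 1, no minimum, scaling to plain totals, median-of-ratios scaling (which returned the deposited scaling), voom on recovered fragments, each library left out, shares of fragments, shares among switched classes, Iglc3 counted as lambda and, chosen after seeing the data, the length of the shortest transcript.

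The constant genes and the gene lists were chosen with earlier results of these data known. The genes named are all constant genes, Grn, genes from among the 3 with the highest level and the 3 with the largest change past an adjusted p of 0.05 in each list, and genes from among the 5 most like the summed IgG genes and the 5 most like Ighm, with exceptions stated where they occur. A few values of single genes are not reported here.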

Additional observations from a re-analysis of the deposited data

How the results depend on the processing

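Of the 9 constant genes tested, 6 were called, where 17.9% of all tested genes passed. The count stayed at 6 in 10 of 12 alternatives. It was 7 with voom (Iglc1 added), where 28.6% of all genes passed, and 7 without PGRN KO replicate 6 (Iglc2 added, log2 fold change -0.64). Over the fold changes of 34 named genes, 335 recomputed values kept direction and call, 61 lost and 4 gained the call, and only Ighg3 changed sign, to 0.089 without WT replicate 1 and 0.11 without PGRN KO replicate 4, with -0.36 to 0.11 over the fits without 1 library. Genes called numbered 2648, 4238 with voom and 1322 to 2161 with 1 library left out, the lowest without PGRN KO replicate 5, and 1335, 1612 and 1662 without WT replicate 2, 1 and 3. List genes called numbered 31, 47 with voom and 17 to 27 with 1 library left out, with 17 without WT replicate 1 and 18 without WT replicate 3. Of all tested genes, 17.9% passed as deposited and 28.6% with voom. The number of genes tested is given with each list above, and was 3 for the other antigen receptor constant genes. As shares of fragments, IgM in WT was 6.86%, IgG 30.6% in WT and 66.4% in PGRN KO, and IgA 62.6% and 33.0%. Per length of the shortest transcript, IgM was 5.16% and 0.458%, IgG 31.0% and 66.4%, IgA 63.9% and 33.1%, and kappa in PGRN KO 98.1%. Among switched classes, IgG in WT was 37.7% and IgA 62.3%. The heavy to light ratio was 2.01 in WT and 1.81 in PGRN KO by fragments, and 0.939 and 0.869 per shortest transcript, so its order between genotypes depends on the scale. For these scale changes the cause is in their construction, and for the other shifts the cause was not tested. No paired analysis was possible because the replicate numbers 1 to 3 and 4 to 6 are not shared between genotypes. Depth limits Ighd, Ighe and the B cell markers, which rest on few or 0 fragments.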
